A study of Homo sapiens with 6 samples.

Results

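The UPF and SMG genes encode the core machinery of nonsense-mediated decay. They were chosen by name, as UPF1, UPF2, UPF3A, UPF3B, SMG1, SMG5, SMG6, SMG8 and SMG9, and these 9 genes were found among the 57500 gene identifiers of the deposited table. PolyA-selected RNA was sequenced from HEK293T cells, a transformed line derived from human embryonic kidney. Of the 6 libraries, 3 (PRMT1 OV replicates 1 to 3, genotype label PRMT1 OV) came from cells transfected by the PolyJet reagent with a pcDNA3 plasmid carrying PRMT1, which encodes the main asymmetric arginine methyltransferase. The other 3 (Mock replicates 1 to 3, genotype label WT) carry a vector control treatment label. Whether Mock cells received an empty plasmid is not stated, so effects of the plasmid and of PRMT1 may not be separable. Both groups share the same line and culture medium, and the labels state neither the time after transfection, nor which promoter drove the insert, nor whether replicates were separate cultures, so the p-values rest on variation among libraries that could be purely technical. The comparison asked which messengers differ when PRMT1 is overexpressed.

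Nonsense-mediated decay removes messengers on which translation stops too early or far from the end of the transcript. The RNA helicase UPF1 meets the terminating ribosome and is joined by UPF2 and by UPF3A or UPF3B. The kinase SMG1, held in check by its partners SMG8 and SMG9, then phosphorylates UPF1, and phosphorylated UPF1 recruits SMG5 and the endonuclease SMG6. In human cells the pathway is known to limit several of its own messengers, among them those of UPF1, UPF2, UPF3B, SMG1, SMG5 and SMG6, so that these transcripts accumulate when decay is impaired.

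PRMT1 itself stood between 62895 and 84923 TPM in the PRMT1 OV libraries and between 368 and 397 TPM in the Mock libraries, so each library matched its label. TPM are transcript levels scaled to a fixed total per library, and PRMT1 took 6.29 to 8.49% of that total in the PRMT1 OV libraries. The table allowed whole reads to be recovered, 18196773 to 23163896 per library, and a factor had 122 to 3651 of them in a single library. Among markers of the line, the neurofilament genes NEFM and NEFL and VIM were present in every library (3 of 8 listed markers were called higher and 3 lower), whereas the mature kidney markers NPHS1, UMOD, AQP2, SLC34A1 and SLC12A1 were all below the 1 TPM filter. Of 6 markers of other cell types, COL1A1 alone passed it, with a log2 fold change of -0.57, and their part in the results was not tested. PRMT1 OV replicate 2 and Mock replicate 3 deviated most from their group means over all tested genes (median 0.09 and -0.07, log2), and some calls and counts that depend on them are also given without them.

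Of the 9 factors, all of which passed the filter of at least 1 TPM in at least 3 libraries, 6 were higher in the PRMT1 OV libraries and 0 were lower (limma on log2(TPM + 1), Benjamini-Hochberg adjusted p under 0.05 over 15341 genes). The 6 were SMG9, SMG8, SMG5, UPF2, SMG6 and UPF1. Over all tested genes 40.3% were called higher and 8.64% lower. The median log2 fold change of the 9 factors was 0.86, against 0.30 for all tested genes. For 7 factors every PRMT1 OV library lay above every Mock library, which held for 49.8% of all tested genes, and for 0 every PRMT1 OV library lay below, which held for 11.6%. After median-of-ratios scaling, which moved the median of all genes to -0.01, 5 factors were called higher and 1, UPF3B, was called lower, beside 22.5% and 25.5% of all genes. After a correction for GC content 6 were higher and 2, UPF3A and UPF3B, lower, beside 23.2% and 25.9% of all genes. Under quantile normalization 5 were higher and 0 lower, beside 20.3% and 19.4% of all genes. When PRMT1 was left out and TPM were recomputed, 7 were higher and 0 lower, beside 49.2% and 5.74% of all genes. In bulk libraries a change in how many cells express a gene and a change in RNA per cell cannot be told apart.

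**Figure D1:**
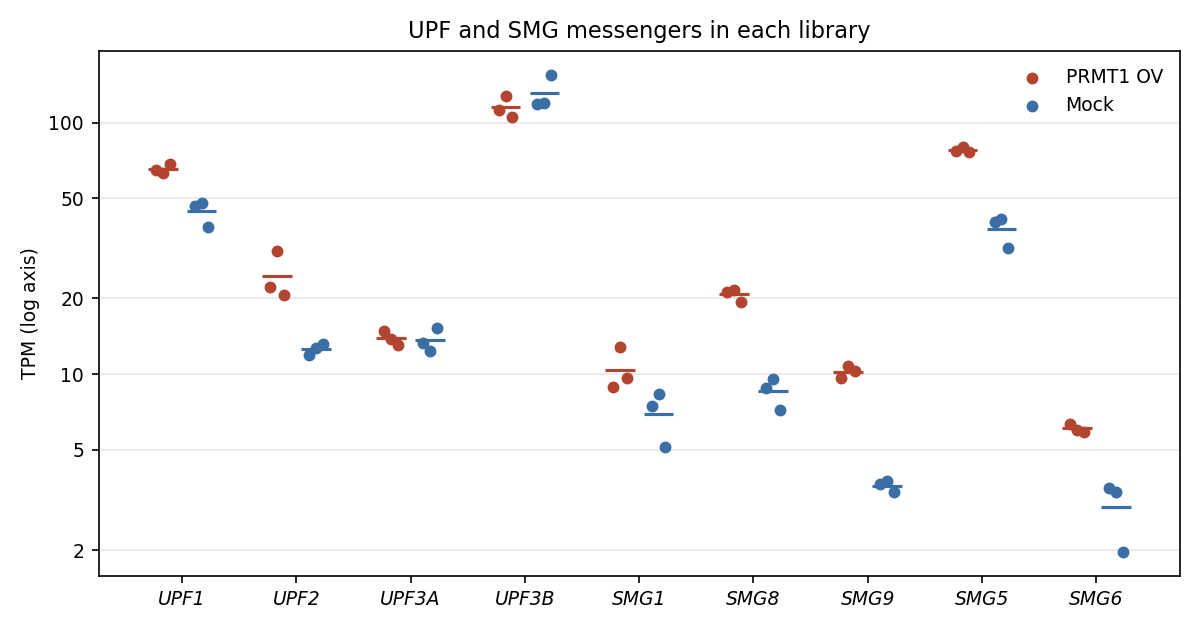
TPM of the 9 factors in each library on a log axis; points are libraries (PRMT1 OV red, Mock blue) and bars are group means of 3. For SMG9 the PRMT1 OV libraries lie between 9.67 and 10.8 TPM and the Mock libraries between 3.42 and 3.75 TPM, while the groups overlap for UPF3A and UPF3B.

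The messengers of both SMG1 partners had the largest log2 fold changes of the 9. SMG9 (ENSG00000105771, chromosome 19, 43727992 to 43754990, minus strand, GRCh38 with GENCODE 29) encodes a regulatory subunit of the SMG1 complex. It stood at 9.67, 10.8 and 10.3 TPM in PRMT1 OV replicates 1 to 3, against 3.67, 3.75 and 3.42 TPM in Mock replicates 1 to 3. All PRMT1 OV values were far above all Mock values, with means of 10.3 ± 0.57 and 3.61 ± 0.17 TPM (SD, n = 3 each). The ratio of the means was 2.84 and the difference on the log2 scale 1.29 with an SE of 0.11 (limma adjusted p = 0.000167). A larger log2 fold change was found for 4.1% of all tested genes.

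SMG8 (ENSG00000167447, chromosome 17, 59209400 to 59215247, plus strand) encodes the subunit that restrains the kinase. Its values were 21.3, 21.7 and 19.4 TPM in the PRMT1 OV libraries, against 8.85, 9.61 and 7.19 TPM in the Mock libraries. Even the lowest PRMT1 OV library was far above the highest Mock library, and the ratio of the means was 2.43. On the log2 scale the difference was 1.20 with an SE of 0.12 (limma adjusted p = 0.000327). Of the exonic bases of SMG8, 422 (11.2%) also belong to ENSG00000265303 on the same strand, which was listed at 0 in all 6 libraries, so how reads of the shared bases were assigned cannot be told. The calls of SMG8 and SMG9 held under all 16 alternatives, with log2 fold changes of 0.80 to 1.30 for SMG8 and 0.82 to 1.48 for SMG9.

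SMG1 (ENSG00000157106, chromosome 16, 18804853 to 18926454, minus strand), the kinase itself, had 8.86, 12.8 and 9.63 TPM in the PRMT1 OV libraries, against 7.48, 8.32 and 5.13 TPM in the Mock libraries. The groups did not overlap, but they came close, and PRMT1 OV replicate 2 was high and Mock replicate 3 low within their groups. The log2 fold change of 0.52 (95% interval 0.08 to 0.97) missed the threshold (limma adjusted p = 0.0544). It passed with a filter at 5 TPM, with TPM recomputed without PRMT1, with the replicate number as a block and without Mock replicate 2 (adjusted p = 0.0424, 0.0247, 0.0225 and 0.0403). It was 0.09 under quantile normalization (adjusted p = 0.659) and 0.20 without both PRMT1 OV replicate 2 and Mock replicate 3 (adjusted p = 0.131). On the TPM scale there was 2.04 ± 0.36 of SMG8 per unit of SMG1 in the PRMT1 OV libraries and 1.25 ± 0.13 in the Mock libraries (SD, n = 3 each). For SMG9 the ratio to SMG1 was 1.00 ± 0.13 in the PRMT1 OV libraries and 0.54 ± 0.12 in the Mock libraries. On the length of the representative transcripts the ratio of SMG8 to SMG1 was 1.36 in the PRMT1 OV libraries and 0.83 in the Mock libraries.

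The value of SMG1 is uncertain because chromosome 16 carries near-identical copies of part of it. The longest transcripts of the 7 annotated pseudogenes SMG1P1 to SMG1P7 were 93.7 to 98.5% identical to the SMG1 messenger where they aligned. They were 2704 to 4262 bases long, against 16115 bases for the representative SMG1 transcript, so each copies only a part of it. A stretch of 90 coding bases (coding bases 61 to 150, GENCODE 29 transcripts) is shown because it makes the ambiguity visible. Capitals mark the bases at which a pseudogene differs from SMG1.
SMG1: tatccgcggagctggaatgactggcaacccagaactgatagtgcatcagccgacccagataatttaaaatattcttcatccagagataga
SMG1P2: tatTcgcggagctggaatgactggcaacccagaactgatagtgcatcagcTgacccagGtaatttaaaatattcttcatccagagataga
SMG1P3: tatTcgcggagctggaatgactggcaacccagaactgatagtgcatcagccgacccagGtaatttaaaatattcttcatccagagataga
SMG1P5: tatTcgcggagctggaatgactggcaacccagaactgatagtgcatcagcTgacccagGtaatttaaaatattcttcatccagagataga
SMG1P2 and SMG1P5 each differ from SMG1 at 3 of these bases and SMG1P3 at 2, and share the others with it.

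The summed reads on these copies had a PRMT1 OV to Mock ratio of 4.12, against 1.54 for the reads on SMG1, neither scaled by library total. Scaled by it, the ratio was 1.38 for SMG1 and 1.63 for SMG1 with its copies, values not comparable with the unscaled 4.12. The library total includes PRMT1 reads, 1944509 to 2323533 in the PRMT1 OV libraries and 10343 to 11345 in the Mock libraries, which lowers scaled PRMT1 OV values. SMG1P3 had 222, 247 and 174 recovered reads in the PRMT1 OV libraries, against 98, 91 and 91 in the Mock libraries. SMG1P5 had 142, 153 and 120 reads in the PRMT1 OV libraries, against 21, 14 and 21 in the Mock libraries, and SMG1P2 had 116, 170 and 108 reads in the PRMT1 OV libraries, against 9, 5 and 4 in the Mock libraries. For SMG1P3 every PRMT1 OV library exceeded every Mock library, which held for 49.8% of all tested genes. SMG1P2 and SMG1P5 passed the filter through the PRMT1 OV libraries alone, so their calls and the separation of their groups carry no weight. The 7 copies together held 551, 681 and 459 reads in the PRMT1 OV libraries and 145, 136 and 129 in the Mock libraries. That was 25.1 ± 1.47% of all reads on SMG1 and its copies in the PRMT1 OV libraries and 11.4 ± 2.46% in the Mock libraries (SD, n = 3 each). With the copies added to SMG1, the mean log2 difference in recovered reads, scaled by library total, was 0.71, against 0.47 for SMG1 alone.

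**Figure D2:**
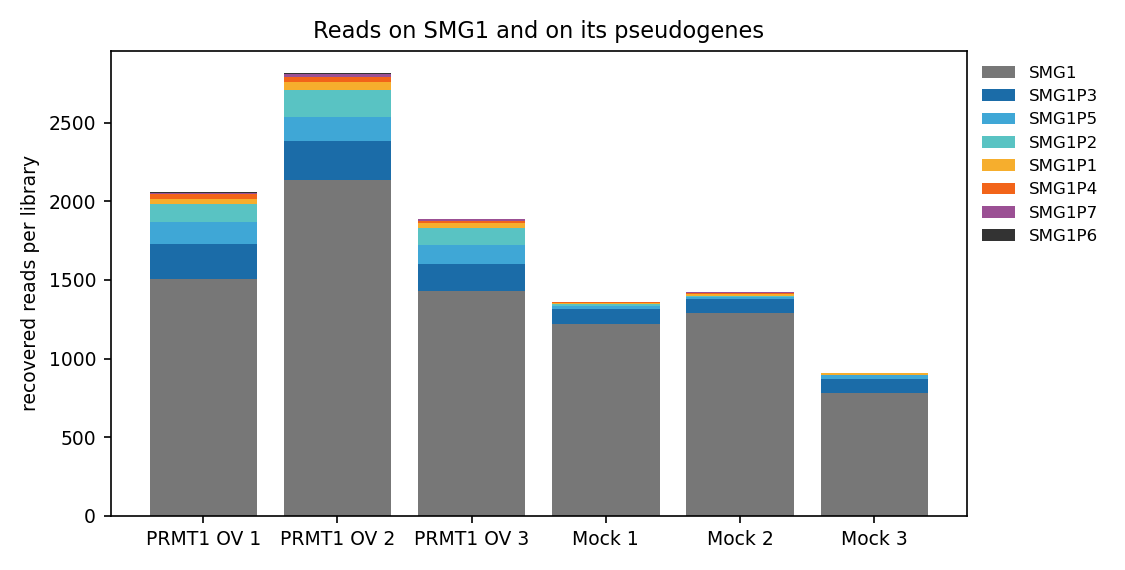
Recovered reads on SMG1 (grey) and on its 7 pseudogenes (colours), stacked for each library. The pseudogene part is 459 to 681 reads in the PRMT1 OV libraries and 129 to 145 reads in the Mock libraries.

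Both factors that act after UPF1 phosphorylation were higher. SMG5 (ENSG00000198952, chromosome 1, 156249224 to 156282825, minus strand), an adaptor that binds phosphorylated UPF1, had 77.4, 79.7 and 76.7 TPM in the PRMT1 OV libraries, against 40.4, 41.2 and 31.7 TPM in the Mock libraries. The PRMT1 OV libraries were close to each other and Mock replicate 3 was the lowest of its group. The means were 77.9 ± 1.54 and 37.8 ± 5.29 TPM (SD, n = 3 each), and SMG5 was higher by 1.04 on the log2 scale with an SE of 0.11 (limma adjusted p = 0.000368). SMG5 was called higher under all 16 alternatives (log2 fold change 0.66 to 1.14).

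SMG6 (ENSG00000070366, chromosome 17, 2059839 to 2303771, minus strand), the endonuclease that cuts the target messenger, had 6.36, 6.00 and 5.91 TPM in the PRMT1 OV libraries, against 3.53, 3.39 and 1.97 TPM in the Mock libraries. It had the lowest mean TPM of the 9 in both groups, with 356 to 439 recovered reads in the PRMT1 OV libraries and 122 to 233 in the Mock libraries. The log2 fold change of 0.86 (limma adjusted p = 0.00598, SE 0.18) was 0.67 without Mock replicate 3 (adjusted p = 0.00499). The call was lost under quantile normalization (0.42, adjusted p = 0.0756). Of its exonic bases 22.9% also belong to HIC1 on the opposite strand, and HIC1 averaged 1.10 ± 0.06 TPM in the PRMT1 OV libraries and 0.97 ± 0.04 TPM in the Mock libraries (SD, n = 3 each). The strand setting of the counting is not given in the sources used here, so reads of the shared bases cannot be assigned.

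SMG5 and SMG6 each start head to head with another protein-coding gene. The start of TMEM79, a membrane protein gene, lies 110 bases from that of SMG5 on the other strand. TMEM79 had 6.98, 5.72 and 7.83 TPM in the PRMT1 OV libraries, against 1.87, 2.46 and 2.67 TPM in the Mock libraries, which is 1.23 higher on the log2 scale with an SE of 0.16 (limma adjusted p = 0.000839). Both genes of the pair were thus higher, each without overlap between the groups, and 49.8% of all tested genes were separated in this direction. The 109 bases between their starts (chr1:156282826-156282934, minus strand, from the GRCh38.p14 promoter table of RefSeq) are shown because they lie upstream of both. They are printed from the TMEM79 side to the SMG5 side, so the label below names the pair and not the direction. The same promoter table lists another SMG5 window (chr1:156291517-156291766), and values per gene cannot separate these starts. None of 9 motifs searched, listed with the promoters, lies in the 109 bases.
SMG5 to TMEM79: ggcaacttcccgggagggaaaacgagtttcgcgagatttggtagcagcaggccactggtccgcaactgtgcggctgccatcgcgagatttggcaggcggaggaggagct
SRR, the serine racemase gene, starts 388 bases from SMG6 and shares 68 exonic bases with it. It had 12.6 ± 1.66 TPM in the PRMT1 OV libraries and 8.11 ± 0.47 TPM in the Mock libraries (SD, n = 3 each), higher by 0.58 on the log2 scale (limma adjusted p = 0.00565). This call was lost after median-of-ratios scaling, quantile normalization and GC correction (adjusted p = 0.0956, 0.295 and 0.092).

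The messengers of UPF1 and UPF2 were also higher. UPF1 (ENSG00000005007, chromosome 19, 18831938 to 18868236, plus strand), the helicase at the centre of the pathway, had 64.9, 63.2 and 68.4 TPM in the PRMT1 OV libraries, against 46.7, 47.9 and 38.4 TPM in the Mock libraries. The groups were separate and Mock replicate 3 was again the lowest. The difference of 0.56 on the log2 scale passed the test (limma adjusted p = 0.00312, SE 0.10), and 31.5% of all tested genes had a larger one. After median-of-ratios scaling it was 0.19 and no longer passed (adjusted p = 0.145).

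UPF2 (ENSG00000151461, chromosome 10, 11920022 to 12043170, minus strand), which links UPF1 to the UPF3 proteins, had 22.3, 30.8 and 20.7 TPM in the PRMT1 OV libraries, against 11.9, 12.7 and 13.2 TPM in the Mock libraries. Here PRMT1 OV replicate 2 was the high library. UPF2 was higher by 0.89 on the log2 scale (limma adjusted p = 0.00231, SE 0.15), by 0.73 without PRMT1 OV replicate 2 (adjusted p = 0.00262) and by 0.43 after GC correction (adjusted p = 0.00902). UPF2 has a GC content of 40.3% in its longest annotated transcript, the lowest of the 9. Its call held under all 16 alternatives.

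Neither UPF3 paralog was called in TPM as deposited. UPF3B (ENSG00000125351, X chromosome, 119805311 to 119852998, minus strand), which bridges the exon junction complex to UPF2, had 112, 127 and 105 TPM in the PRMT1 OV libraries, against 118, 120 and 155 TPM in the Mock libraries. The groups overlapped and the highest value was that of Mock replicate 3. The log2 fold change was -0.18 (95% interval -0.47 to 0.10, limma adjusted p = 0.252). It was -0.56 after median-of-ratios scaling and -0.61 after GC correction, both past the threshold (adjusted p = 0.0144 and 0.00842), and -0.06 without Mock replicate 3 (adjusted p = 0.634).

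UPF3A (ENSG00000169062, chromosome 13, 114281584 to 114305817, plus strand), the autosomal paralog with a weaker or opposing role in decay, had 14.8, 13.8 and 13.1 TPM in the PRMT1 OV libraries, against 13.3, 12.4 and 15.3 TPM in the Mock libraries. These values interleave. The log2 fold change was 0.03 (95% interval -0.23 to 0.28, limma adjusted p = 0.851) in TPM as deposited, and was below 0 after median-of-ratios scaling (-0.33, adjusted p = 0.0748), under quantile normalization (-0.37, adjusted p = 0.0556) and after GC correction (-0.40, adjusted p = 0.0415). UPF3B exceeded UPF3A by 8.26 ± 0.84 times in the PRMT1 OV libraries and 9.56 ± 0.62 times in the Mock libraries (SD, n = 3 each), and these ratios overlapped. On the length of the representative transcripts the ratios were 4.43 in the PRMT1 OV libraries and 5.12 in the Mock libraries.

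**Figure D3:**
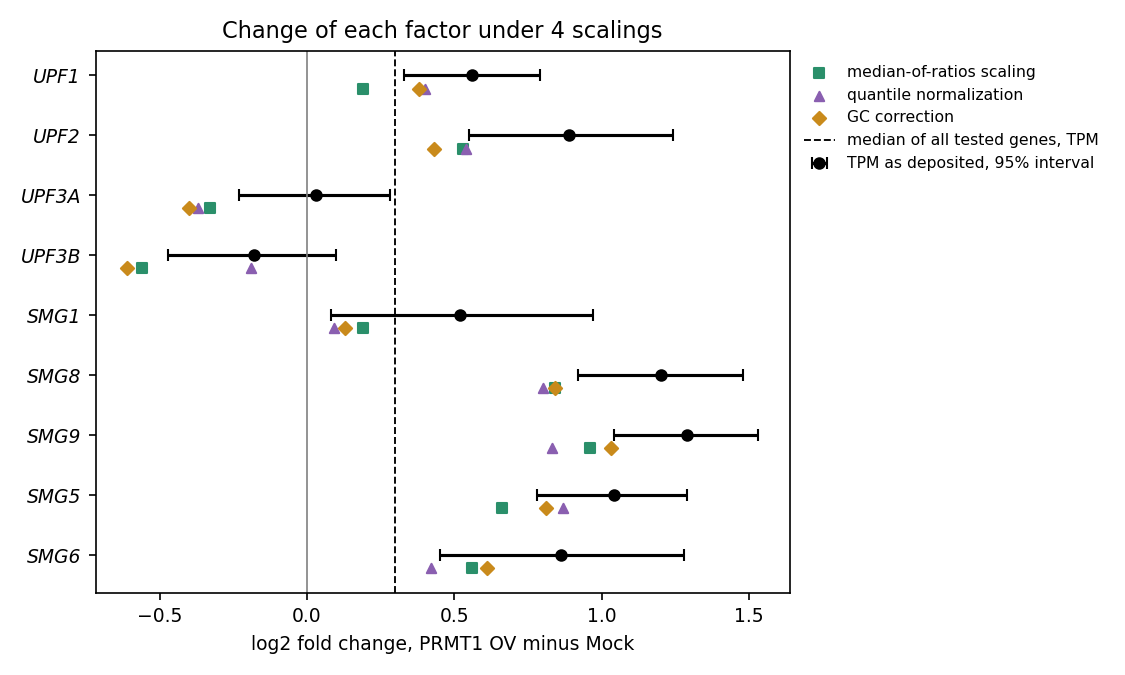
Log2 fold change (PRMT1 OV minus Mock) of each factor: black points with 95% intervals are TPM as deposited, coloured marks are the same change after 3 other scalings, and the dashed line is the median of all tested genes (0.30). SMG5, SMG8 and SMG9 lie at 0.66 or above under all 4, UPF3B lies below 0 under all 4, and UPF3A changes sign.

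TPM is per length, but the length behind it, all annotated exons of a gene, exceeds the representative transcript to a different degree in each factor: 2.42 times in UPF3A, 1.77 times in SMG6, 1.61 times in UPF1 and in SMG1, 1.44 times in SMG9, 1.30 times in UPF3B, 1.16 times in SMG5, 1.08 times in SMG8 and 1.06 times in UPF2. Levels were therefore ordered on both lengths, and the order depended on which was used. UPF3B had the highest mean level in both groups on either length. In TPM as deposited, the order in the PRMT1 OV libraries was UPF3B, SMG5, UPF1, UPF2, SMG8, UPF3A, SMG1, SMG9 and SMG6, and in this order UPF2 overlapped SMG8 and SMG1 overlapped SMG9. In the Mock libraries it was UPF3B, UPF1, SMG5, UPF3A, UPF2, SMG8, SMG1, SMG9 and SMG6, where UPF1 overlapped SMG5, UPF3A overlapped UPF2, SMG8 overlapped SMG1 and SMG9 overlapped SMG6. On transcript length the order in the PRMT1 OV libraries was UPF3B, UPF1, SMG5, UPF3A, UPF2, SMG8, SMG1, SMG9 and SMG6, and UPF3A then overlapped UPF2, UPF2 overlapped SMG8 and SMG1 overlapped SMG9. SMG5 lay above UPF1 in TPM in the PRMT1 OV libraries (mean ratio 1.19) and below it on transcript length (0.86). In the Mock libraries the ratio of SMG5 to UPF1 was 0.85 in TPM and 0.62 on transcript length. The 9 together summed to 345 ± 19.2 TPM in the PRMT1 OV libraries and 262 ± 8.72 TPM in the Mock libraries (SD, n = 3 each). In TPM, UPF3B made up 31.9 to 34.8% of this sum in the PRMT1 OV libraries and 46.3 to 57.1% in the Mock libraries.

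Pearson correlations of log2(TPM + 1) among UPF1, SMG5, SMG6, SMG8 and SMG9 were 0.92 to 1.00 over the 6 libraries, and those of UPF2, the other factor that rose, with these 5 were 0.82 to 0.94. They describe libraries that include the difference between the groups. UPF3B ran against UPF1 and SMG6 (-0.77 for each). The protein-coding gene most like each factor over the 6 libraries was YKT6 for UPF1, ZNG1A for UPF2, HSPE1 for UPF3A, PPM1N for UPF3B, WWC2 for SMG1, TBL2 for SMG5, NT5DC2 for SMG6, MEF2C for SMG8 and ARHGEF25 for SMG9, with correlations of 0.983 to 0.9997. Each is the best match among all tested protein-coding genes over only 6 libraries that include the group difference. High correlations were therefore bound to be found and carry no weight. The matches need not share the size of the change: ARHGEF25 had a log2 fold change of 0.40, against 1.29 for SMG9. MEF2C averaged 0.98 TPM in the Mock libraries, below the filter level. Within the Mock group, replicate 3 lay below the group mean for 6 factors and above it for 3, with a median deviation of -0.20 (log2), against -0.07 over all tested genes.

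None of the annotation features given here was shared by all 9 factors. The 5′ untranslated region held 13 ATG triplets in UPF2 and 1 each in SMG1, SMG5 and SMG9. It held 0 in UPF1, UPF3A, UPF3B, SMG6 and SMG8, and these triplets were not counted in other genes. Their representative transcripts had 3′ untranslated regions between 237 bases (SMG8) and 4716 bases (SMG1), and 6 of the 9 exceeded the median of 1089 bases over 12129 tested protein-coding genes. SMG9 had 3604 bases, and 86.2% of these genes matched or exceeded the 237 bases of SMG8. Whether these features bear on the changes was not tested. GENCODE 29 lists at least 1 transcript of the nonsense-mediated decay type for 3 factors, SMG1, SMG8 and SMG9, and for 42.6% of the tested protein-coding genes. The values are per gene, so productive and decay-prone transcripts of a factor cannot be separated. Genes with and without such a transcript had the same median log2 fold change, 0.31.

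Promoters were looked up in the RefSeq table, which held 15 start windows of 8 factors. In the 250 bases before a start, both strands were searched for 9 motifs: the CCAAT box, the GC box (GGGCGG), the CRE core (TGACG), the ETS motif (CCGGAAG), the E box (CACGTG), the TATA box (TATAAA), the C/EBP-ATF motif (TGATGNAA) and the NRF1 and YY1 motifs. CCAAT was in 5 of the 15 windows (33.3%), against 32.0% of 35093 promoter windows, and GGGCGG in 10 of the 15 (66.7%), against 42.6% of all; some factors have several windows. The SMG9 window held none of the motifs, and 4 of the motifs were found in no factor. The windows of SMG9, with the largest log2 fold change of the 9, and of UPF3B, with the lowest, are shown. Capitals mark the motif matches.
SMG9, chr19:43754963-43755212, minus strand, GRCh38.p14: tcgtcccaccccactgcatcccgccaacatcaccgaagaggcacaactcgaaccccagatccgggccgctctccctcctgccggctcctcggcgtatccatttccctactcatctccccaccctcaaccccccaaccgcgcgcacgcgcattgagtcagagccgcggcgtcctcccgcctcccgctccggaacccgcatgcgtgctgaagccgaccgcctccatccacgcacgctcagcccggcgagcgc
UPF3B, chrX:119852964-119853213, minus strand, GRCh38.p14: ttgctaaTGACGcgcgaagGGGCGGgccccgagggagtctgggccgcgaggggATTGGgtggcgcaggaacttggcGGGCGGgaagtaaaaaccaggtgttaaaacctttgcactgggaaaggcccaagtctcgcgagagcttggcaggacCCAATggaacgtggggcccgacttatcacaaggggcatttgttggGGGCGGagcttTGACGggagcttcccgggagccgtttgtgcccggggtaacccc
The UPF3B window held GGGCGG 3 times, CCAAT or its complement 2 times and TGACG 2 times. A match is a run of letters and not a measured binding site.

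The rest of the pathway was read from 5 lists of 58 genes, 57 of them tested, in which 32 were higher and 7 were lower (56.1% and 12.3%), with a median log2 fold change of 0.35. Over all tested genes the shares were 40.3% and 8.64%. Median-of-ratios scaling gave 19 higher and 17 lower, where 22.5% and 25.5% of all genes were called. GC correction gave 19 and 19, where 23.2% and 25.9% of all genes were called, and quantile normalization 28 and 8, where 20.3% and 19.4% were. Of 10 further decay factors, 5 rose and 0 fell, with a median of 0.26, and median-of-ratios scaling and GC correction each gave 3 higher and 3 lower. Quantile normalization gave 4 higher and 0 lower, and leaving out PRMT1 OV replicate 2 gave 4 higher and 1 lower. The 5 of 10 lie near the 40.3% of all tested genes. DHX34, a helicase that promotes UPF1 phosphorylation, rose by 0.90 and ICE1, a protein that aids UPF3B recruitment, by 1.05 (limma adjusted p = 0.000485 and 0.00329). The log2 fold changes of NBAS and RUVBL2, 0.20 and -0.03, missed the threshold (adjusted p = 0.403 and 0.783).

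The exon junction complex marks spliced junctions and is bound by UPF3B. Of its 10 listed genes 5 rose and 0 fell, with a median of 0.32, near the 40.3% of all tested genes. There were 3 higher and 4 lower after median-of-ratios scaling, 3 and 5 after GC correction, and 6 and 1 under quantile normalization. Of all tested genes these scalings called 22.5%, 23.2% and 20.3% higher, and 25.5%, 25.9% and 19.4% lower, in that order. Without PRMT1 OV replicate 2, 3 were lower. The change was uneven: PYM1, which removes the complex from messengers, rose by 1.59, ACIN1, an accessory subunit, by 0.94 and MAGOHB, a core subunit, by 1.10 (limma adjusted p = 0.000121, 0.000189 and 0.000603). The core subunit RBM8A had a value of -0.11 (adjusted p = 0.21), which was -0.49 and past the threshold after median-of-ratios scaling (adjusted p = 0.00236), and -0.50 after GC correction (adjusted p = 0.00147).

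Of 8 tested termination and cap-binding genes 3 rose and 2 fell, with a median of 0.32, and GSPT2 was listed at 0 in all 6 libraries. The 3 of 8 (37.5%) lie near the 40.3% of all tested genes, and median-of-ratios scaling and GC correction each gave 1 higher and 3 lower. Quantile normalization gave 4 higher and 2 lower. Of all tested genes these 3 scalings called 22.5%, 23.2% and 20.3% higher, and 25.5%, 25.9% and 19.4% lower, in that order. The nuclear cap-binding gene NCBP1 rose by 0.76 and the release factor genes ETF1 and GSPT1 by 0.63 and 0.51 (limma adjusted p = 0.00704, 0.0094 and 0.0204). The calls of ETF1 and GSPT1 were lost after median-of-ratios scaling (adjusted p = 0.0675 and 0.298) and after GC correction (adjusted p = 0.0607 and 0.645), and that of GSPT1 also with no filter (adjusted p = 0.0572) and without PRMT1 OV replicate 2 (adjusted p = 0.0656). The poly(A)-binding protein genes PABPC4 and PABPC1 fell by 0.40 and 0.42 on the log2 scale (adjusted p = 0.00367 and 0.00457), and PABPC1 did not pass under quantile normalization (-0.08, adjusted p = 0.538).

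Of 9 decapping and 5′ to 3′ decay genes 6 rose and 0 fell (66.7%, against 40.3% of all tested genes), with a median of 0.55. Median-of-ratios scaling, quantile normalization and GC correction each left 4 higher, the last with 1 lower. Of all tested genes these scalings called 22.5%, 20.3% and 23.2% higher, and 25.5%, 19.4% and 25.9% lower, in that order. Leaving out 1 library at a time gave 5 to 7 higher, with 5 without PRMT1 OV replicate 2 and 5 without Mock replicate 1, 2 or 3. The decapping activators DCP1B, DCP1A and EDC3 rose by 1.51, 1.31 and 0.95 (limma adjusted p = 0.000119, 0.000144 and 0.00309). DCP1A had 28.3 ± 3.20 TPM in the PRMT1 OV libraries and 10.8 ± 0.33 TPM in the Mock libraries (SD, n = 3 each). The catalytic subunit gene DCP2 rose by 0.36 (adjusted p = 0.0407) in TPM, a call lost after median-of-ratios scaling, quantile normalization and GC correction (adjusted p = 0.994, 0.956 and 0.101).

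Transcripts known as targets of the pathway moved in both directions. Of 20 listed, 13 rose and 5 fell, with a median of 0.41, a list written with earlier results of these data known. Over all tested genes 40.3% were called higher and 8.64% lower in TPM as deposited. Median-of-ratios scaling and GC correction each gave 8 higher and 7 lower, with medians of 0.05 and 0.06. Of all genes these scalings called 22.5% and 23.2% higher, and 25.5% and 25.9% lower. Quantile normalization gave 10 higher and 5 lower with a median of 0.36, beside 20.3% and 19.4% of all genes. In TPM as deposited 3 fell without PRMT1 OV replicate 1 or 3 or without Mock replicate 1 or 2. The small nucleolar RNA host genes SNHG15 and SNHG12 rose by 3.04 and 2.71, and CARS1, the cysteinyl-tRNA synthetase gene, by 1.41 (limma adjusted p = 2.7e-05, 5.3e-05 and 0.000123). SNHG12 is annotated as an antisense RNA. Its exonic overlap with other genes was not measured, and reads of any shared bases cannot be assigned without strand. The stress genes GADD45B, GADD45A and DDIT3 fell by 1.10, 0.70 and 0.70 (adjusted p = 0.000135, 0.000187 and 0.00136). GADD45B had 103 ± 3.64 TPM in the PRMT1 OV libraries and 222 ± 22.5 TPM in the Mock libraries (SD, n = 3 each). TBL2, a listed target and the gene most like SMG5 above, had 42.5 ± 0.66 TPM in the PRMT1 OV libraries and 18.1 ± 2.79 TPM in the Mock libraries. How far transcription or decay set these levels was not measured.

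**Figure D4:**
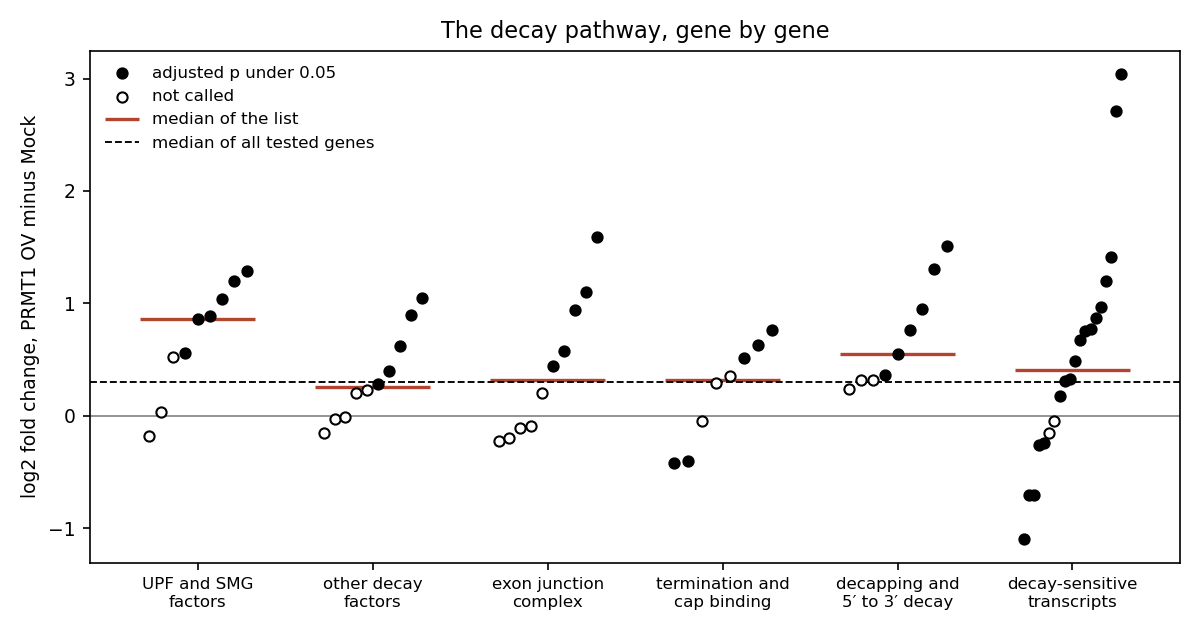
Log2 fold change (PRMT1 OV minus Mock) of each tested gene in the 9 UPF and SMG factors and in 5 pathway lists; filled points passed the adjusted threshold, red bars are list medians and the dashed line is the median of all tested genes. The list medians run from 0.26 (other decay factors) to 0.86 (UPF and SMG factors), and the targets spread from -1.10 (GADD45B) to 3.04 (SNHG15).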

How the data were processed

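Per the submitters' processing notes, Trimmomatic 0.36, STAR 2.5.2b, featureCounts and Subread 1.5.2 were used with GRCh38, in roles not stated. The authors deposited TPM per Ensembl gene for 6 libraries; their annotation, strand setting and TPM formula: not given in the sources used here. Of 57500 identifiers 40907 had a symbol in the table of gene names. GENCODE 29 gave coordinates and lengths. TPM keeps no depth, but multiplied by exonic length, 95.5 to 95.7% of values under 50 reads were whole within 0.05 of a read, which gave the recovered reads; those of the 9 factors lay within 0.01 of whole numbers. Libraries of a group differed by more than counting noise (chi-square per degree of freedom 2.7 to 23.2), so none was taken for a duplicate.

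The PRMT1 OV and Mock groups were fitted with limma 3.58.1 (R 4.3.3; mean-variance trend, no covariate, all 6 libraries) to log2(TPM + 1) of genes reaching 1 TPM in 3 or more libraries, adjusted by Benjamini-Hochberg over all 15341. Fold changes on this scale understate those of low genes. The fit was tested on simulated data. GC correction subtracted a loess curve on transcript GC content (span 0.3) from each library. Pseudogenes were aligned with blastn 2.17.0. The members and lists were chosen with earlier results of these data known. Named are all members, PRMT1, genes that overlap or copy a member, the most similar gene of each member, and up to 3 called genes per list and direction with the smallest p, except an item that is not reported here. ENSG00000260017 and ENSG00000236838, antisense genes that overlap SMG1 (171 bases) and SMG6 (191 bases), were listed at 0 in all libraries. TMEM79 was named for its position, and NBAS, RUVBL2, RBM8A, DCP2 and GSPT2 after their values were seen.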

Additional observations from a re-analysis of the deposited data

How the results depend on the processing

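Scaling moved the counts most. After median-of-ratios scaling 3448 genes were higher and 3913 lower, after GC correction 3559 and 3975, and under quantile normalization 3109 and 2979, against 6190 and 1325 in TPM as deposited. Median-of-ratios scaling left 1 factor lower, and GC correction 2, of which UPF3A turned to -0.40. For the 5 pathway lists these scalings gave 19 higher and 17 lower, and 19 higher and 19 lower, while quantile normalization gave 28 higher and 8 lower. When TPM were recomputed without PRMT1, 880 genes were lower. Without Mock replicate 3 and PRMT1 OV replicate 2, 2115 genes and 12 pathway list genes were lower, and 6 factors were higher. Leaving out 1 library at a time gave 5082 to 5634 genes higher, 935 to 1520 lower, 6 to 7 factors higher, 0 lower, and 27 to 31 pathway list genes higher and 5 to 11 lower, the 11 without PRMT1 OV replicate 2. The cause of these shifts was not tested. Same-numbered libraries showed little shared deviation (correlations -0.03, 0.06 and 0.02), though for replicates 2 and 3 the same number correlated best. With 3 libraries per group this cannot decide whether the numbers pair them. With the replicate block 6275 genes were higher, 1314 lower and 7 factors higher. SMG1 was among them, with an SE of 0.14 against 0.19 without the block. The fold changes of SMG1P2 and SMG1P5 depended on the pseudocount (0.93 to 3.94 and 0.77 to 2.68), since they rest on few Mock reads. Adding the pseudogene reads to SMG1 and the levels on transcript length were chosen after seeing the data.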
